A study of Mus musculus with 12 samples.

Results

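RNA-seq counts of primary astrocytes were examined for 10 genes, the 3 metallothioneins *Mt1*, *Mt2* and *Mt3*, *Nfe2l2*, which encodes the transcription factor NRF2, and 6 genes known as NRF2 targets, *Hmox1*, *Nqo1*, *Srxn1*, *Txnrd1*, *Gclc* and *Gclm*. They were taken by gene name from the 18903 genes of the count table, each name matched 1 identifier, and all 10 were among the 17938 genes that passed the filter on low counts. The study asked what the loss of RACK7, a chromatin reader encoded by *Zmynd8*, does to astrocytes of the early postnatal brain. Cultures were started from brains taken at P1, P6 or P8 (postnatal day 1, 6 and 8) from either genotype, and each of the 6 groups of genotype and time point held 2 libraries. By the study's methods the cKO mice carried hGFAP-cre and loxP-flanked *Rack7* alleles (hGFAP-cre::Rack7 fl/fl), and the WT mice carried the same Cre with unflanked alleles (hGFAP-cre::Rack7 +/+). The human GFAP promoter that drives this Cre is already active in neural stem cells of the embryonic pallium, so neurons and other descendants of those cells are targeted too. Meninges were removed beforehand, and the cultures were shaken during growth to detach microglia and oligodendrocytes. By the methods the remaining cells then grew on to confluence, so P1, P6 and P8 are ages at dissection, not at harvest. Each age has its own cultures. In the time steps below, age therefore cannot be told apart from differences between culture preparations. The WT and cKO cultures of an age were separate as well, and the methods do not say whether they were prepared together. A genotype difference, or its change over time, therefore cannot be told apart from differences between preparations either. The labels call the replicates biological without saying whether they came from separate animals or pools, so the p-values measure only the spread between these libraries.

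Metallothioneins are small cysteine-rich proteins that bind zinc and copper. Their genes are switched on by the zinc-sensing factor MTF1 through metal response elements and by glucocorticoids, and in the brain *Mt1* and *Mt2* are expressed mainly in astrocytes, whereas *Mt3* is the member best known from neural tissue. NRF2 is held at a low level by KEAP1, which presents it for degradation, and under oxidative or electrophilic stress it accumulates, pairs with a small MAF protein and binds antioxidant response elements. Its targets make glutathione, recycle thioredoxin, reduce quinones and break down heme, and the same elements can be occupied by the repressor BACH1. NRF2 is regulated largely at the protein level, which RNA counts do not show.

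Libraries held between 54413504 and 89183250 counts. *Zmynd8* was higher, not lower, in the libraries labelled cKO. Its level in CPM (counts scaled to the normalized size of the library) at P1 was 136 and 136 for WT and 213 and 216 for cKO. It was 114 and 116 for WT and 242 and 230.5 for cKO at P6, and 99.98 and 104 for WT and 160.4 and 171 for cKO at P8. The log2 fold changes were 0.65, 1.04 and 0.70, with edgeR quasi-likelihood adjusted p of 3.16e-05, 4.97e-07 and 3.78e-06. A count over the whole gene cannot show whether the flanked exons were missing, RACK7 protein, which the study examined by immunoblot and ChIP-seq, was not analysed here, and WT and cKO are used below as the labels of the libraries. All 9 astrocyte markers had counts in every library, but at P8 their summed level was 687 to 702 CPM in cKO and 1566 to 1949 CPM in WT libraries. Of the 9, 5 were down (edgeR adjusted p below 0.05 and fold change of at least 1.5), where 8.37% of all genes were down and 11.2% up. Fibroblast markers, 7 genes, summed to 2448 to 2481 CPM in cKO and 402 to 417 CPM in WT at P1, to 2515 to 2688 against 6639 to 6684 CPM at P6, and to 8187 to 8437 against 25642 to 25762 CPM at P8, and *Lum*, one of them, had no count in either P6 cKO library. In bulk samples such as these, fewer cells of a type and less RNA per cell cannot be told apart.

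In GENCODE vM21 (GRCm38) *Mt3*, *Mt2* and *Mt1* lie at chr8:94152607-94154146, chr8:94172664-94173568 and chr8:94179082-94180327 on the plus strand, each with 3 exons in its main transcript. *Hmox1* (chr8:75093621-75100589, plus) and *Nqo1* (chr8:107388225-107403206, minus) lie elsewhere on that chromosome. *Nfe2l2* (chr2:75675513-75704641, minus) and *Srxn1* (chr2:152105516-152111376, plus) share chromosome 2, and *Gclm* (chr3:122245557-122270732), *Gclc* (chr9:77754535-77794485) and *Txnrd1* (chr10:82833951-82897712) are on plus strands. The sequences of the metallothionein starts are given because the 3 genes, which lie side by side on chromosome 8, moved together over time. The windows are the 250 bases before each start in RefSeq (GRCm38.p6), and capitals mark the core of a metal response element, searched on both strands as TGCACNC or TGCGCNC, which 21.4% of all 32851 RefSeq windows of this length hold. *Mt1* had 1 match, 23 bases before its RefSeq start, *Mt2* had 3, and *Mt3* had none of these letters in its window. The RefSeq and GENCODE starts differ for *Mt1* and *Mt2*, so distances to a start depend on the annotation. The *Mt2* window ends at 94172617, before the GENCODE start at 94172664. The *Mt1* window ends at 94179088, past the GENCODE start at 94179082.
Mt1, chr8:94178839-94179088, plus strand: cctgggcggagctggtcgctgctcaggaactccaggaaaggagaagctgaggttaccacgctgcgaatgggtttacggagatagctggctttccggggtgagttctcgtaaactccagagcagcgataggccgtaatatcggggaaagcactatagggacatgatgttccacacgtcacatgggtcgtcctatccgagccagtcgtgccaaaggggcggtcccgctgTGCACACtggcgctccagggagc
Mt2, chr8:94172368-94172617, plus strand: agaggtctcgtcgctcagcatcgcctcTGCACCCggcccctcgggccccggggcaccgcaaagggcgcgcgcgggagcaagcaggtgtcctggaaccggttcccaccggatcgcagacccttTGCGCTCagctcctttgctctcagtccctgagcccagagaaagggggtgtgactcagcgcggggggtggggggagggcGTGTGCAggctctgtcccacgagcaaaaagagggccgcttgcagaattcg
Mt3, chr8:94152357-94152606, plus strand: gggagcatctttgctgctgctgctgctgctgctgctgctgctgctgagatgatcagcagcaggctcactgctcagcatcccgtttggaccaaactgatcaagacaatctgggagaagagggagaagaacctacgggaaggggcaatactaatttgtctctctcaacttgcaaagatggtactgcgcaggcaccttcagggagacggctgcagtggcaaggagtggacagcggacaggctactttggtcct

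Further matches, 4 for *Mt1* and 3 for *Mt2*, stood in the first 120 bases of the first exons that GENCODE vM21 (GRCm38) gives for their main transcripts. The first exon of *Mt3* was not searched, so the 3 genes cannot be compared by these matches. No share over all genes was computed for this search. Stretches of 30 bases around them are shown with the matches in capitals.
Mt1, chr8:94179088-94179117, plus strand: ctcTGCACTCcgcccgaaaagTGCGCTCgg
Mt1, chr8:94179168-94179197, plus strand: ctgctGGGTGCAaacccttTGCGCCCggac
Mt2, chr8:94172674-94172703, plus strand: gcGTGTGCAggcggcgggggcGCGTGCAtg
Mt2, chr8:94172717-94172746, plus strand: gggcggagctttTGCGCTCgacccaatact

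The antioxidant response element core was searched on both strands as TGACNNNGC, which 10.2% of the RefSeq windows hold. It was present once each in the windows of *Nfe2l2*, *Gclm* and *Mt2* and in 1 of the 3 windows of *Txnrd1*, and these letters were absent from the windows of *Nqo1*, *Srxn1*, *Mt1* and *Mt3*. The RefSeq table used held no window of *Hmox1* or *Gclc*. In the first 120 bases of the first exons searched above, *Mt1* held 1 match of this core and *Mt2* held 0. No share over all genes was computed there. The 4 matches of the RefSeq windows are shown in capitals within 30 bases each.
Mt2, chr8:94172529-94172558, plus strand: aaagggggtgTGACTCAGCgcggggggtgg
Nfe2l2, chr2:75704884-75704913, minus strand: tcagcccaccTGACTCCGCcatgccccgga
Gclm, chr3:122245413-122245442, plus strand: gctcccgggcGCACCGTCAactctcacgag
Txnrd1, chr10:82859104-82859133, plus strand: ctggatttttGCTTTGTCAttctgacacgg

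The 10 genes did not move as 1 group between the genotypes. A gene is called up or down here where the adjusted p of edgeR's quasi-likelihood test was below 0.05 and the fold change at least 1.5. At P1 edgeR called 0 of the 10, where 4.9% of all genes tested were called in either direction, and DESeq2 also called 0, while 5 had an unadjusted p below 0.05. At P6 *Nqo1* and *Srxn1* were down, where 6.38% of all genes were down and 13.5% called in all, and none of the 10 was up by edgeR or DESeq2. *Mt1*, *Mt2* and *Hmox1* were higher there at an edgeR adjusted p below 0.05, but by less than 1.5-fold. At P8 *Hmox1* and *Srxn1* were up, where 11.2% of all genes were up and 19.6% called in all, and none was down by either tool or at an unadjusted p below 0.05. By adjusted p alone, at any fold change, the counts were 3, 8 and 6 of 10, with 6.54% of all genes higher and 2.94% lower for P1, 13.2% higher and 12.5% lower for P6, and 19.6% higher and 14.8% lower for P8. The plot of the levels by library gives every value. The 3 genotype comparisons use different libraries, whereas the time steps below share groups with them and with each other.

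**Figure D1:**
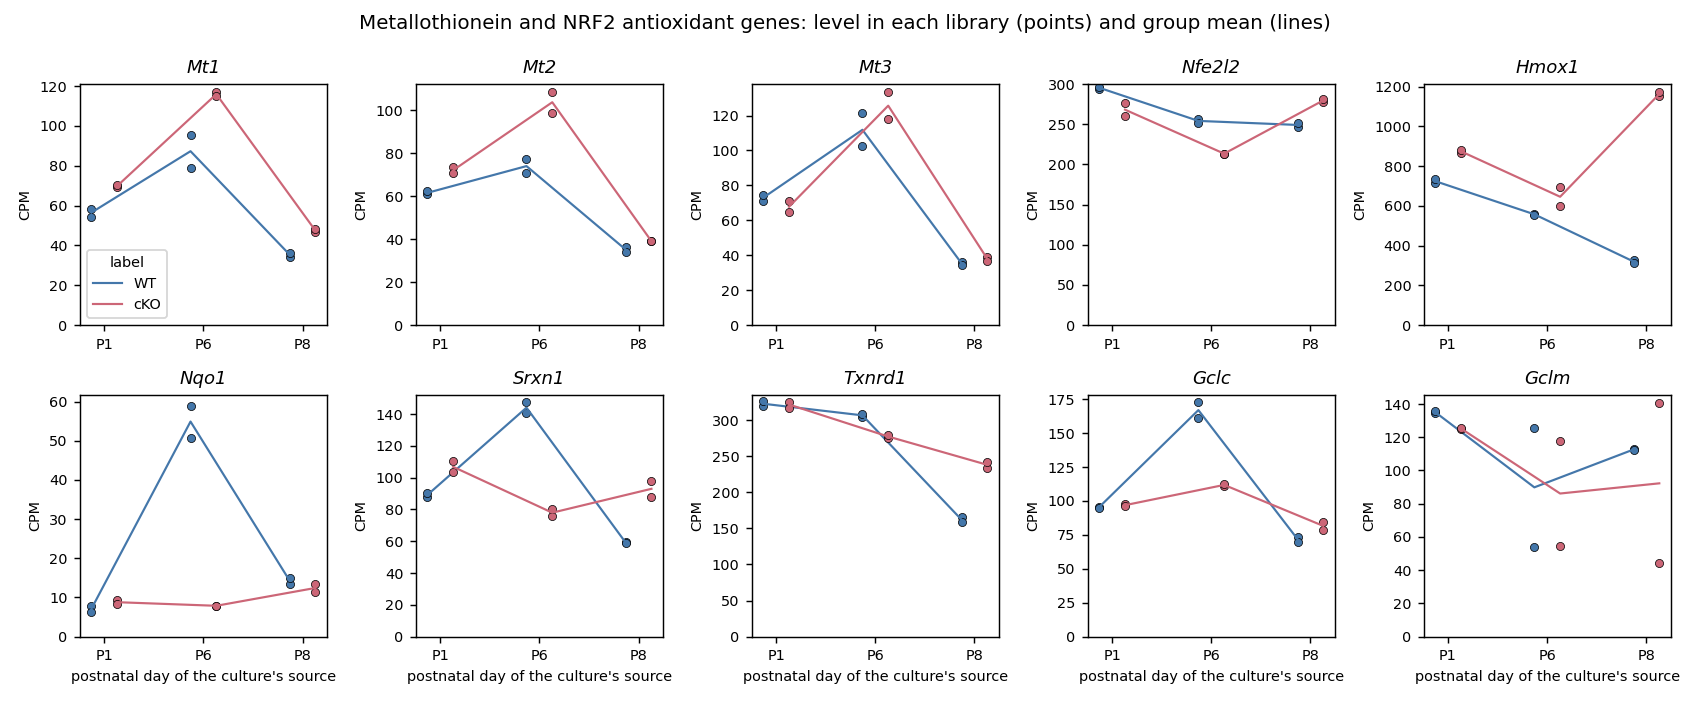
Level of each of the 10 genes in CPM (vertical axes, from 0) at P1, P6 and P8 (horizontal axes), with a point for each of the 12 libraries and lines joining the means of 2 libraries, blue for WT and red for cKO. The 3 metallothioneins peak at P6 in both genotypes, Hmox1 stands apart at P8 in the cKO libraries (1153 and 1172 CPM), Nqo1 at P6 in the WT libraries (59.0 and 50.8 CPM), and Gclm splits the replicates of 3 groups.

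Levels of different genes were compared per kilobase of the transcript that GENCODE lists first. *Hmox1*, heme oxygenase 1, was the most abundant of the 10 in every group, from 204 CPM per kilobase in P8 WT to 741 in P8 cKO. *Nqo1* was the lowest in 5 groups, at 4.56 to 9.18 CPM per kilobase, and in P6 WT it reached 35.3 and stood above *Gclm*. The metallothioneins and *Nfe2l2* held the ranks below *Hmox1* in every group, except that *Txnrd1* stood above *Mt3* in P8 cKO, by less than their spread. Their order among themselves changed between groups, and several neighbours overlapped: *Mt2* and *Nfe2l2* in P1 WT, *Mt1* and *Mt3* in P1 cKO, *Mt1* and *Mt2* in P6 WT and P6 cKO, and *Mt3* with each of the other two in P8 WT. Lower down, *Srxn1* and *Gclc* overlapped in P6 WT and P8 WT, and *Gclm* with both *Gclc* and *Nqo1* in P8 cKO. With all annotated exons as the length, *Mt2* came first of the 3 in every group and *Mt3* before *Mt1* in all but P8 cKO, so the order of the metallothioneins depends on the transcript chosen.

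The metallothioneins were highest at P6 and lowest at P8 under both labels. *Mt1* was at 54.5 and 58.5 CPM in WT and 69.3 and 70.4 CPM in cKO libraries at P1. At P6 the WT libraries were at 79.0 and 95.7 CPM and the cKO libraries at 117 and 115 CPM, and at P8 they were at 34.2 and 36.4 against 46.6 and 48.1 CPM. Both cKO libraries thus stood above both WT libraries at each time point. The log2 fold changes for the genotype were 0.31 (SE 0.09, adjusted p = 0.0617), 0.41 (SE 0.09, adjusted p = 0.00735) and 0.42 (SE 0.09, adjusted p = 0.00456) in edgeR, below the fold change of 1.5.

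*Mt2* was at 60.9 and 62.3 CPM in WT and 73.4 and 70.8 CPM in cKO libraries at P1, and at 70.7 and 77.4 against 109 and 98.9 CPM at P6. At P8 it was at 36.2 and 34.1 against 39.2 and 39.0 CPM, so the cKO libraries were above the WT libraries at each time point with a narrow gap at P8. The log2 fold changes were 0.23 (SE 0.07), 0.49 (SE 0.07) and 0.15 (SE 0.07), with edgeR adjusted p of 0.0793, 0.000749 and 0.128. The genotype effect was smaller at P8 than at P6 by 0.34 on the log2 scale (edgeR interaction, adjusted p = 0.0384), a call that 12 of 17 alternatives lost with adjusted p of 0.0551 to 0.120, the replicate block (0.0569) and 10 single libraries left out in turn among them. *Mt2* shares exon sequence with the antisense gene *Gm45774*, at 3.03 to 8.22 CPM, and with the strand setting of the counting unknown here, a few of its reads may belong to that gene.

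*Mt3* separated the genotypes least of the 3. It was at 71.3 and 74.6 CPM in WT and 71.0 and 64.5 CPM in cKO libraries at P1. The libraries overlapped at P6, with 102 and 121 CPM in WT and 133 and 118 CPM in cKO, and at P8 the WT pair had 36.3 and 34.4 CPM and the cKO pair 39.0 and 36.7 CPM. Its log2 fold changes of -0.11, 0.17 and 0.10 (SE 0.10, 0.09 and 0.10) had edgeR adjusted p of 0.601, 0.246 and 0.481.

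From P1 to P6 *Mt1* and *Mt3* rose in WT libraries by 0.63 and 0.62 on the log2 scale (edgeR adjusted p of 0.000372 and 0.000736), as did *Nqo1*, *Gclc* and *Srxn1*, where 12.2% of all genes tested were up and 10.9% down (23.1% in all). Without replicate 1 of P1 WT the changes of *Mt1* and *Mt3* came to 0.58 and 0.58, and without replicate 2 of P6 WT to 0.48 and 0.49, below the fold cut-off. In cKO libraries only *Mt1* (0.73) and *Mt3* (0.89) of the 10 were up over this step, where 11% of all genes were up and 10.4% down (21.4% in all), and *Mt2*, at 0.53, passed the fold cut-off when replicate 2 of P6 cKO was left out (0.59). From P6 to P8 all 3 fell under both labels, *Mt3* the most. The log2 fold changes were -1.31, -1.07 and -1.66 for *Mt1*, *Mt2* and *Mt3* in WT and -1.29, -1.41 and -1.73 in cKO libraries, with edgeR adjusted p between 4.27e-07 and 4.48e-06. In WT libraries 8 of the 10 genes were down over that step, where 10.3% of all genes were down and 8.66% up (18.9% in all), and *Nfe2l2* and *Gclm* were the other 2. In cKO libraries only the 3 metallothioneins of the 10 were down, where 12.2% of all genes were down.

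At P8 all 3 metallothioneins were also below their P1 level under both labels. The log2 fold changes of *Mt1*, *Mt2* and *Mt3* were -0.68, -0.81 and -1.05 in WT and -0.56, -0.88 and -0.84 in cKO libraries. That of *Mt1* in cKO was 1.47-fold (edgeR adjusted p = 0.000916), below the fold cut-off. In WT the 3 were among 6 of the 10 genes down, where 15% of all genes were down and 29.4% called in all. *Mt2* and *Mt3* were the only 2 down in cKO, where 9.97% were down, 10.3% up and 20.3% called in all. Marker lists moved over the same steps. From P6 to P8 the fibroblast list rose in 5 of 7 genes under both labels, and the summed astrocyte markers went from 1404 to 1542 CPM down to 687 to 702 CPM in cKO libraries with 7 of 9 genes down, while in WT libraries they were at 1518 to 1705 and 1566 to 1949 CPM with 1 up and 3 down. Over this step 8.66% of all genes were up and 10.3% down in WT, and 11.9% up and 12.2% down in cKO libraries. The part of these markers in the metallothionein changes was not tested.

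*Nfe2l2* was the steadiest of the 10, with a highest library only 1.39 times the lowest. It was at 294 and 296 CPM in WT and 276 and 260.4 CPM in cKO libraries at P1. The P6 values were 256 and 252 CPM for WT and 213 and 214 CPM for cKO, and the P8 values 247 and 251 CPM for WT and 278 and 281 CPM for cKO. The cKO libraries were thus the lower pair at P1 and P6 and the higher pair at P8. The log2 fold changes were -0.14 (adjusted p = 0.0476), -0.25 (adjusted p = 0.000926) and 0.17 (adjusted p = 0.00686), each with an SE of 0.04 in edgeR, and none reached a fold change of 1.5. The change of the genotype effect itself passed the edgeR test, by 0.42 from P6 to P8 (adjusted p = 0.000462) and by 0.31 from P1 to P8 (adjusted p = 0.00216).

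*Hmox1* encodes the enzyme that splits heme into biliverdin, iron and carbon monoxide. It was at 713 and 734 CPM in WT and 867 and 881 CPM in cKO libraries at P1, and at 559 and 554 against 693 and 597 CPM at P6. At P8 WT libraries were at 327 and 312 CPM and cKO libraries at 1153 and 1172 CPM, with the WT pair below every other library of the series and the cKO pair above them. *Hmox1* was 3.64-fold higher in P8 cKO, a log2 fold change of 1.86 (SE 0.06, edgeR adjusted p = 4.56e-08), after 0.27 at P1 (adjusted p = 0.0218) and 0.21 at P6 (adjusted p = 0.0284). Over time it fell in WT libraries by 1.18 on the log2 scale from P1 to P8 (edgeR adjusted p = 3.24e-07), whereas in cKO libraries it rose by 0.85 from P6 to P8 (adjusted p = 4.03e-06), where 11.9% of all genes were up and 24% called in all. The genotype effect at P8 exceeded that at P6 by 1.65 and that at P1 by 1.59 (edgeR interaction, adjusted p of 2.09e-06 and 1.37e-06).

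Markers of microglia and macrophages, which also express *Hmox1*, moved with it at P8. The 8 markers, with 9 identifiers, summed to 3954 to 3998 CPM in P8 cKO and 2077 to 2207 CPM in P8 WT libraries. Of the identifiers 5 were up and 1 down, where 11.2% of all genes were up and 8.37% down. At P6 they summed to 1339 to 1418 CPM in cKO and 1858 to 1890 CPM in WT libraries, and at P1 to 1818 to 1912 against 1923 to 2064 CPM. *Mrc1*, a macrophage mannose receptor, was at 1339 and 1368 against 703 and 726 CPM at P8, while *Tmem119*, a microglial marker, was at 24.3 and 21.5 against 61.8 and 57.8 CPM. Among the P8 libraries no marker of the list was at 0, and 1 of the 2 identifiers of *Itgam* was at 0.00 and 0.0156 CPM in the P6 cKO libraries. The part of these markers in the *Hmox1* difference was not tested. The plot of both genes beside the marker lists gives the levels by library.

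**Figure D2:**
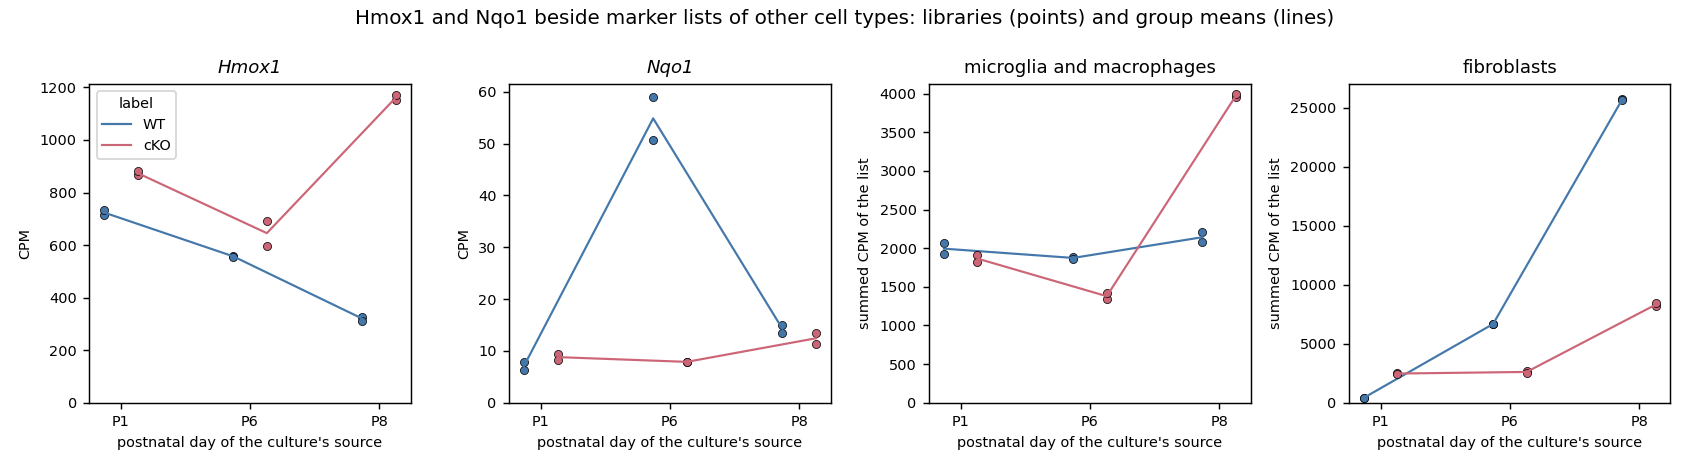
Level of Hmox1 and Nqo1 in CPM (left panels) and summed CPM of the microglia and macrophage list and of the fibroblast list (right panels) at P1, P6 and P8, with a point for each library and lines joining the means of 2 libraries, blue for WT and red for cKO. In the P8 cKO libraries both Hmox1 (1153 and 1172 CPM) and the microglia and macrophage list (3954 to 3998 CPM) were at their highest, and the fibroblast list was highest in P8 WT, where Nqo1 was low (13.5 and 15.0 CPM).

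*Nqo1* encodes a quinone reductase and is among the targets most used as a readout of NRF2. It was low in 5 of the 6 groups. P1 libraries were at 7.85 and 6.30 CPM in WT and 9.33 and 8.25 CPM in cKO, and P8 libraries at 13.5 and 15.0 against 11.4 and 13.4 CPM. At P6 WT libraries reached 59.0 and 50.8 CPM and cKO libraries stayed at 7.90 and 7.84 CPM. The P6 difference was 6.97-fold, with a log2 fold change of -2.80 (SE 0.15, edgeR adjusted p = 1.28e-06), whereas the differences of 0.32 at P1 and -0.20 at P8 did not pass (adjusted p of 0.233 and 0.314). In WT libraries *Nqo1* rose by 2.96 on the log2 scale from P1 to P6 and fell by 1.94 from P6 to P8 (edgeR adjusted p of 3.77e-07 and 7.00e-06). It was also above its P1 level at P8 in WT (1.01, adjusted p = 0.000275), the only 1 of the 10 that was up from P1 to P8, where 14.4% of all genes were up. In cKO libraries the step from P1 to P6 was -0.16 (adjusted p = 0.413), and the rise of 0.66 from P6 to P8 fell below the fold cut-off without replicate 2 of P8 cKO (0.54). From P1 to P8 it came to 0.50 in cKO libraries, and passed the cut-off without replicate 1 of P1 cKO (0.59) or of P8 cKO (0.61). The genotype effect at P6 was below that at P1 by 3.12 (edgeR interaction, adjusted p = 7.81e-06).

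Marker lists of other cells moved in both directions in the P6 cKO libraries in which *Nqo1* and *Srxn1* were down. Of the fibroblast list 6 of 7 genes were down there, where 6.38% of all genes were down and 7.16% up. Of the endothelial list, with 3 of its 5 genes tested, those 3 were down, with sums of 6.66 to 7.89 CPM in cKO and 83.7 to 86.2 CPM in WT libraries. In the P8 WT libraries the endothelial sum was 142 to 157 CPM and the fibroblast sum was the highest of the series, while *Nqo1* was at 13.5 and 15.0 CPM. The neuron list, with 3 of its 7 genes tested, summed to 232 to 249 CPM in P6 cKO and 116 to 125 CPM in P6 WT libraries with 2 genes up, and it was also higher in P8 cKO, at 176 to 178 CPM compared with 65.2 to 68.5 CPM. The ependymal and choroid plexus list summed to 131 to 136 CPM in P6 cKO libraries and 76.6 to 93.1 CPM in WT, with 2 of 4 genes tested up and 1 down. For the oligodendrocyte lineage the P6 sums were 139 to 149 CPM in cKO and 191 to 193 CPM in WT, with 2 of 7 genes tested down. For proliferation they were 368 to 392 CPM and 529 to 575 CPM, with 1 of 5 down. The mural cell sums were 2415 to 2779 CPM and 2016 to 2084 CPM, with 1 of 3 genes tested up and 1 down. Nearly all of these sums was *Acta2*, at 2767 and 2401 CPM in cKO and 2010 and 2078 CPM in WT, which was itself not called. The part of these markers in the P6 differences was not tested.

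*Srxn1*, sulfiredoxin, which reactivates oxidized peroxiredoxins, changed direction between P6 and P8. It was at 88.0 and 90.2 CPM in WT and 103 and 110.2 CPM in cKO libraries at P1. At P6 the WT pair was at 141 and 147 CPM and the cKO pair at 75.6 and 80.3 CPM, and at P8 the WT pair was at 59.7 and 58.6 CPM and the cKO pair at 97.9 and 88.1 CPM. At P6 the WT libraries were the highest of the series for this gene, and at P8 they were the lowest. The log2 fold change was 0.26 at P1 (adjusted p = 0.0354), -0.89 at P6 (SE 0.07, adjusted p = 1.21e-05) and 0.65 at P8 (SE 0.06, adjusted p = 5.13e-05) in edgeR. Without replicate 1 of P8 cKO the P8 value came to 0.58, below the fold cut-off. The genotype effect differed between P6 and P8 by 1.54 (edgeR interaction, adjusted p = 4.84e-06). WT libraries fell by 0.59 from P1 to P8, just past the cut-off, and without replicate 2 of P1 WT (-0.57) or replicate 2 of P8 WT (-0.58) they did not pass.

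*Txnrd1*, cytosolic thioredoxin reductase, differed little at P1, with 319 and 326 CPM in WT and 326 and 317 CPM in cKO libraries, which overlapped. In WT it was at 305 and 308 CPM at P6 and at 166 and 158 CPM at P8, and in cKO at 275 and 279 CPM at P6 and at 233 and 242 CPM at P8. WT libraries at P8 were thus the lowest of the series. Its log2 fold change of 0.56 at P8 (SE 0.04, edgeR adjusted p = 4.65e-06) was a 1.47-fold difference, and it passed 1.5-fold without replicate 1 of P8 WT (0.59). Its level fell by 0.99 from P1 to P8 in WT libraries and by 0.43 in cKO libraries, and the genotype effect at P8 exceeded that at P1 by 0.56 (edgeR interaction, adjusted p = 6.23e-05).

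**Figure D3:**
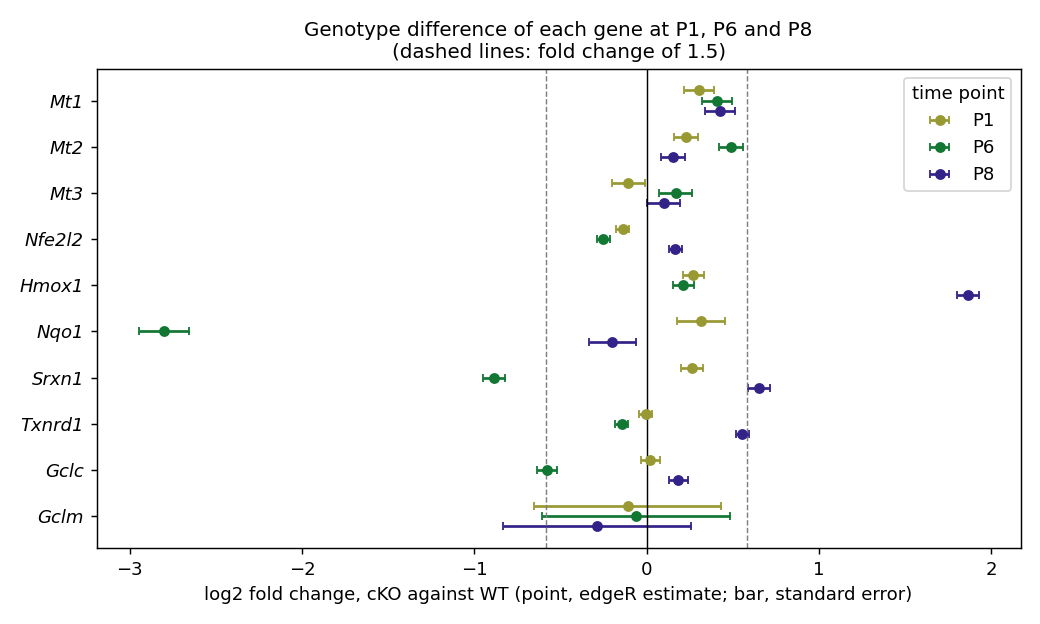
Log2 fold change of cKO against WT libraries for each of the 10 genes (horizontal axis; points, edgeR estimates; bars, standard errors) at P1, P6 and P8, with dashed lines at a fold change of 1.5. Past the lines lie Nqo1 (-2.80) and Srxn1 (-0.89) at P6 and Hmox1 (1.86) and Srxn1 (0.65) at P8, and the standard errors of Gclm (0.54) are the widest.

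*Gclc* and *Gclm* encode the catalytic and the modifier subunit of glutamate-cysteine ligase, the rate-limiting enzyme of glutathione synthesis. *Gclc* was at 95.8 and 95.2 CPM in WT and 97.4 and 96.4 CPM in cKO libraries at P1. At P6 it was at 173 and 161 CPM in WT and 111 and 112 CPM in cKO, and at P8 at 73.8 and 70.0 CPM in WT and 78.4 and 84.7 CPM in cKO. The WT libraries at P6 stood above all others. The P6 difference of -0.58 (SE 0.06, edgeR adjusted p = 7.26e-05) was 1.49-fold, just under the cut-off, and passed it without replicate 2 of P6 WT (-0.63). Those at P1 and P8 were 0.02 and 0.18 (adjusted p of 0.896 and 0.0320). WT libraries rose by 0.81 from P1 to P6 and fell by 1.22 from P6 to P8, and the genotype effect at P6 was below that at P1 by 0.60 (edgeR interaction, adjusted p = 0.000918).

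*Gclm* did not follow the labels. It was at 135 and 136 CPM in P1 WT, 125 and 125 CPM in P1 cKO and 113 and 112 CPM in P8 WT libraries. The replicates of the other 3 groups differed by over 2-fold, at 54.0 and 126 CPM in P6 WT, 118 and 54.6 CPM in P6 cKO, and 44.1 and 140.4 CPM in P8 cKO. The higher library was 2.33, 2.15 and 3.19 times the lower. Of 10523 genes with a mean of at least 10 CPM, only 1.1% had a replicate ratio that large in P6 WT, 1.15% of 10521 in P6 cKO and 0.38% of 10531 in P8 cKO. No genotype difference passed (log2 fold changes of -0.11, -0.06 and -0.29, SE 0.54 each, edgeR adjusted p of 0.951, 0.962 and 0.737).

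The gene shares exon sequence with *Gm17494* on the opposite strand. *Gm17494* was at 16.6 and 83.1 CPM in the P1 WT libraries, where *Gclm* hardly differed, at 16.7 and 47.3 CPM in P6 WT, at 56.3 and 64.5 CPM in P6 cKO and at 44.9 and 81.2 CPM in P8 cKO. The lower library of *Gm17494* was thus also the lower of *Gclm* in P6 WT and P8 cKO but not in P6 cKO, and whether reads were shared between them was not tested. A predicted gene on the strand of *Gclm*, *Gm6061*, also overlaps its exons and was not analysed here.

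**Figure D4:**
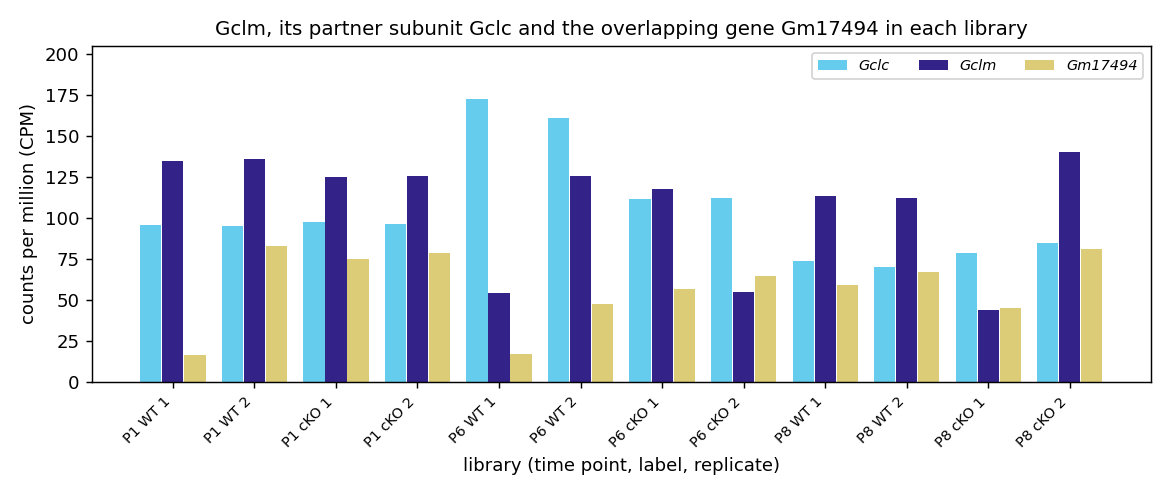
Level in CPM (vertical axis, from 0) of Gclc, Gclm and the overlapping gene Gm17494 in each of the 12 libraries (horizontal axis, by time point, label and replicate), to be read for each gene across libraries. Gclc replicates stay close to each other, while Gclm takes a low level in replicate 1 of P6 WT (54.0 CPM), replicate 2 of P6 cKO (54.6 CPM) and replicate 1 of P8 cKO (44.1 CPM).

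Between time points the genotype effect itself differed for 3 of the 10 genes from P1 to P6, where 15.3% of all genes passed this interaction test (7.12% upward and 8.19% downward), for 7 from P6 to P8, where 21.5% passed (12.6% and 8.83%), and for 4 from P1 to P8, where 25.7% passed (14% and 11.7%). The 7 from P6 to P8 were *Mt2*, *Nfe2l2*, *Hmox1*, *Nqo1*, *Gclc*, *Txnrd1* and *Srxn1*, and for all but *Mt2* the log2 fold change of cKO against WT rose. A rise of this effect need not be a rise of the level in cKO libraries. From P6 to P8 *Gclc* and *Txnrd1* changed by -0.45 and -0.22 on the log2 scale in cKO and by -1.22 and -0.92 in WT libraries. *Nqo1* differed by 2.60 (edgeR adjusted p = 1.97e-05), *Gclc* by 0.76 (adjusted p = 0.000147) and *Txnrd1* by 0.70 (adjusted p = 2.23e-05). *Mt1*, *Mt3* and *Gclm* passed in none of the 3, with edgeR adjusted p of at least 0.230.

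The other genes of these pathways came from 7 lists with 62 genes tested. At P1 4 of them were up and none down, where 4.01% of all genes were up and 0.892% down, although 12 were lower at an unadjusted p below 0.05 in edgeR. At P6 7 were up and 9 down (11.3% and 14.5% of the 62, against 7.16% and 6.38% of all genes). At P8 16 were up and 8 down (25.8% and 12.9%, against 11.2% and 8.37%). The median log2 fold change over the 62 was -0.02, -0.04 and 0.23, and over all genes tested it was 0.00, 0.00 and 0.01.

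Among 8 regulators of NRF2, 2 were up and 1 down at P6 and 3 were up at P8, with medians of -0.06 and 0.22. *Mafk* and *Maff*, small MAF partners of NRF2, were both up at P6 (0.74 and 0.79, edgeR adjusted p of 3.05e-05 and 0.000339) and at P8 (1.01 and 1.31, adjusted p of 2.55e-06 and 9.25e-06). *Maff* was at 62.5 and 61.2 CPM in WT and 116 and 98.5 CPM in cKO libraries at P6 and at 20.9 and 18.9 against 50.1 and 48.5 CPM at P8. *Bach1* was down at P6 (-0.72, adjusted p = 0.000219), and *Keap1* had log2 fold changes of 0.03, -0.14 and 0.19 (adjusted p of 0.921, 0.408 and 0.221).

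In the glutathione and thioredoxin list, 15 genes, *Slc7a11* had the largest differences. It encodes the cystine transporter that supplies cysteine for glutathione. It was at 50.2 and 49.3 CPM in WT and 78.6 and 72.9 CPM in cKO libraries at P1. Libraries of P6 had 278 and 251 CPM in WT and 10.7 and 12.2 CPM in cKO, and those of P8 had 495 and 498 CPM in WT and 74.7 and 83.7 CPM in cKO. WT libraries were thus lower than cKO libraries at P1 and far above them later, with log2 fold changes of 0.61, -4.53 and -2.65 (SE 0.08, 0.09 and 0.08, edgeR adjusted p of 0.00151, 5.57e-09 and 3.87e-08). *Prdx1*, a peroxiredoxin, was down at P6 (-0.84, adjusted p = 0.00440) and up at P8 (0.73, adjusted p = 0.00678). *Gstp1*, a glutathione transferase with near-identical paralogues, was up at P6 (1.66, adjusted p = 0.0157) at 3.27 and 6.98 CPM in WT and 17.1 and 15.4 CPM in cKO libraries, and its count is uncertain for that reason. Over the list 3 genes were up and 2 down at P6 and 4 up and 3 down at P8.

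NADPH is the reductant that thioredoxin reductase and NQO1 draw on. Of 6 genes that supply it, 3 were down at P6, with a median of -0.36, and 1 at P8. *Pgd* was higher in cKO libraries at P8 by 0.54 (edgeR adjusted p = 2.31e-05), less than 1.5-fold. *Pgd* and *G6pdx*, both of the pentose phosphate pathway, were down at P6 (-0.67 and -0.80, adjusted p of 9.50e-06 and 1.72e-06), and *Me1*, malic enzyme, was down at P8 (-0.81, adjusted p = 4.03e-06).

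The heme and iron genes, 8 in number, had 2 down at P6 and 4 up at P8, with medians of -0.25 and 0.64. *Slc40a1*, the iron exporter ferroportin, was down at P6 (-1.03, edgeR adjusted p = 9.60e-05) and up at P8 (0.95, adjusted p = 0.000102). *Blvrb*, a biliverdin reductase, and *Ftl1*, the ferritin light chain, were up at P8 (1.01 and 0.89, adjusted p of 9.19e-05 and 1.98e-06). *Ftl1* was at 1871 and 1946 CPM in WT and 3601 and 3497 CPM in cKO libraries there. These are the libraries in which the microglia and macrophage list was higher, as given above, and its part in these genes was not tested either. Like other ferritin genes, *Ftl1* has processed copies with which the counting could have shared reads.

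Among 11 other antioxidant enzymes, *Sod3*, the extracellular superoxide dismutase, was up at each time point, with log2 fold changes of 0.62, 1.23 and 2.37 (edgeR adjusted p of 0.00248, 1.12e-05 and 1.22e-07). At P8 it was at 28.6 and 25.2 CPM in WT and 137 and 140 CPM in cKO libraries. *Gpx7* was up at P1 (1.38, adjusted p = 0.00222) and down at P8 (-0.97, adjusted p = 0.00333), and *Gpx8* was down at P8 (-0.82, adjusted p = 1.19e-05). Both are glutathione peroxidase family members of the endoplasmic reticulum.

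For *Mt1* and *Mt2* the zinc and glucocorticoid genes are the nearest neighbours in regulation. Of 9 zinc handling genes tested, 1 was up and 1 down at P6 and at P8, with medians of 0.09 and 0.09, and *Mt4*, *Slc30a3* and *Slc30a10* were not analysed here. The importer *Slc39a8* was down at P6 (-1.11, edgeR adjusted p = 0.00176) and up at P8 (0.79, adjusted p = 0.00771), and *Slc39a14* was down at P8 (-0.80, adjusted p = 2.44e-06). *Slc39a4* was up at P6 (2.19, SE 0.65, adjusted p = 0.0360) from a low level, 0.757 and 0.0876 CPM in WT and 2.48 and 1.34 CPM in cKO libraries. *Mtf1*, the metal-sensing activator, was at 33.6 to 54.7 CPM over the 12 libraries. Of 5 glucocorticoid-responsive genes, *Sgk1* and *Fkbp5* were up at P8 (0.97 and 0.94, adjusted p of 1.27e-06 and 0.000153), and *Sgk1* was at 353 and 341 CPM in WT and 272 and 244 CPM in cKO libraries at P6, its highest group levels. *Zbtb16* of that list was not analysed here.

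**Figure D5:**
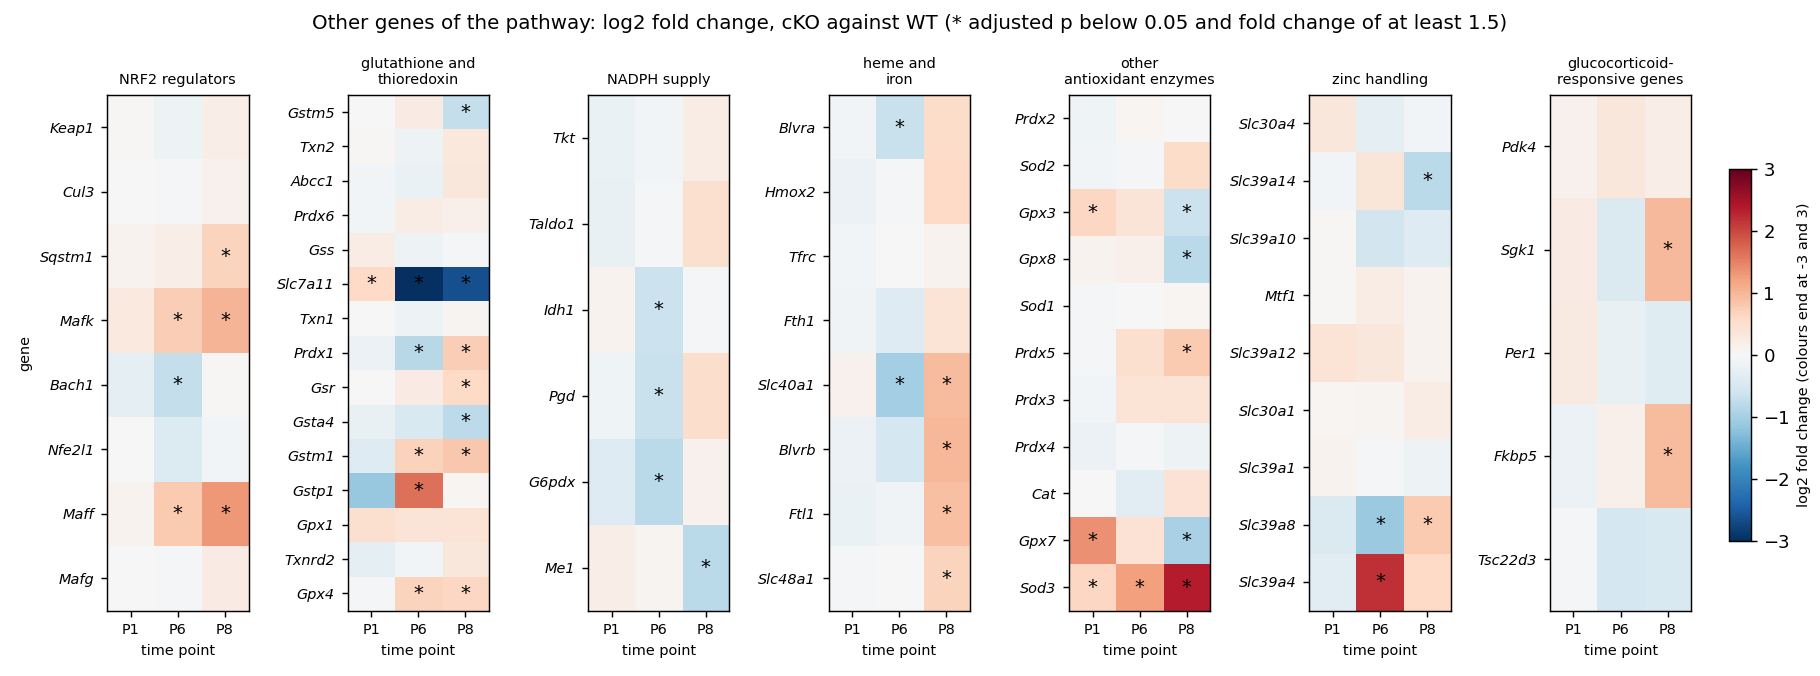
Log2 fold change of cKO against WT libraries (colour, ending at -3 and 3) for the 62 other genes in 7 lists (rows) at P1, P6 and P8 (columns), with an asterisk where edgeR's adjusted p was below 0.05 and the fold change at least 1.5. Asterisks stand at 4 genes at P1, 16 at P6 and 24 at P8, and Slc7a11 is the darkest row (-4.53 at P6).

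Over the 12 libraries the log2 CPM of the metallothioneins ran closely together, with Pearson's r of 0.96 for *Mt1* with *Mt2*, 0.94 for *Mt1* with *Mt3* and 0.96 for *Mt2* with *Mt3*. Such values were not particular to the family: of 15136 other genes, 271, 302 and 186 had r above 0.9 with *Mt1*, *Mt2* and *Mt3*. The NRF2 targets did not all run together: r was 0.79 for *Gclc* with *Srxn1*, 0.74 for *Srxn1* with *Txnrd1*, 0.64 for *Nqo1* with *Gclc* and -0.29 for *Nqo1* with *Hmox1*. *Nfe2l2* had r between -0.24 and 0.40 with its 6 targets. Between a metallothionein and a target r ran from -0.16 (*Mt1* with *Gclm*) to 0.83 (*Mt3* with *Gclc*), the latter above every pair of targets. These are descriptions over libraries that share groups and time points.

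Of 15136 genes with a mean of at least 1 CPM, those nearest to *Hmox1* over the 12 libraries were *Adam8* (r = 0.99), *Sdc3* (r = 0.99) and *Ccl4* (r = 0.97). For *Nqo1* they were *Nsdhl* (r = 0.95), *Kif14* (r = 0.95) and *Nr4a2* (r = 0.93), and for *Srxn1* *Slc40a1*, *Fam181b* and *Cct5* (each r = 0.92). *Mt1* was nearest to *Dner*, *Tnfrsf12a* and *Stk40*, *Mt2* to *Tubb2a* and *Gm35040*, and *Mt3* to *Tceal3*, *Gnao1* and *Rgs16*, with r of 0.98 to 0.99. *Nfe2l2* was nearest to *Capza1*, *Ptbp3* and *Kcnn4*, *Gclc* to *Racgap1*, *Dpy19l3* and *5031425E22Rik*, and *Txnrd1* to *Vax1*, *Sema5b* and *Akr1c14*, with r of 0.95 to 0.98. *Gclm* had its nearest genes at r of 0.88 (*Zfp768*), 0.85 (*Ambra1*) and 0.81 (*Dhx35*), and it was the only 1 of the 10 with no gene above 0.9.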

How the data were processed

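The table the authors deposited gives raw counts, 1 whole number per gene and library, without normalization. By the methods mRNA was captured and sequenced, and Hisat2 mapped the reads to GRCm38. The counter, its annotation and its strand setting remain unknown, being not given in the sources used here. GENCODE vM21 held 18861 of 18903 identifiers, and promoter windows came from RefSeq (GRCm38.p6).

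Counts of all 12 libraries were fitted in R 4.3.3 with edgeR 4.0.16 (TMM factors 0.943 to 1.07, filterByExpr, 1 mean per group, quasi-likelihood test). P was adjusted by Benjamini-Hochberg over 17938 genes. A call needs an adjusted p below 0.05 with a fold change of 1.5 or more (the fold cut-off is that of the study's methods), and an interaction needs the adjusted p alone. Group means rest on 2 libraries, a common biological coefficient of variation of 0.178, and counts whose precision covers counting error only. The fit was tested on simulated data. CPM use TMM-scaled totals, and correlations use log2(CPM + 0.5).

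Alternatives were DESeq2 1.42.0, its size factors, no filter, the compared groups alone, the replicate block, a fold change of 2, and each library left out. An unadjusted p and the adjusted p at any fold change were added after seeing the data. The 10 genes and all lists were chosen with earlier results of these data known. All 10 are named, with up to 3 called genes per pathway list by largest change and the 3 genes most like each by Pearson's r. Of the genes so chosen, 1 is left out of the text. *Mrc1*, *Tmem119*, *Lum*, *Acta2*, *Keap1* and *Mtf1* were named after their values were seen.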

Additional observations from a re-analysis of the deposited data

Results flagged for a closer look

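The genotype effect, the log2 fold change of cKO against WT libraries, differed between time points for 14 gene and step combinations by edgeR's interaction test. No explanation was tested for any of them. The 3 steps share groups, so their values are not independent of each other.

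Between P1 and P6 the effect moved down for 3 NRF2 targets, by -3.12 for *Nqo1* (adjusted p = 7.81e-06), by -1.15 for *Srxn1* (adjusted p = 3.37e-05) and by -0.60 for *Gclc* (adjusted p = 0.000918). Between P6 and P8 it moved up by 2.60 for *Nqo1* (adjusted p = 1.97e-05), 1.65 for *Hmox1* (adjusted p = 2.09e-06), 1.54 for *Srxn1* (adjusted p = 4.84e-06), 0.76 for *Gclc* (adjusted p = 0.000147), 0.70 for *Txnrd1* (adjusted p = 2.23e-05) and 0.42 for *Nfe2l2* (adjusted p = 0.000462). Over that step *Mt2* moved the other way, by -0.34 (adjusted p = 0.0384), and this call was lost in 12 of 17 alternatives.

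From P1 to P8 the effect rose by 1.59 for *Hmox1* (adjusted p = 1.37e-06), 0.56 for *Txnrd1* (adjusted p = 6.23e-05), 0.39 for *Srxn1* (adjusted p = 0.0123) and 0.31 for *Nfe2l2* (adjusted p = 0.00216). *Nqo1* did not pass over that step (-0.51, adjusted p = 0.0903) but did without replicate 1 of P1 WT (-0.68, adjusted p = 0.0442).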

How the results depend on the processing

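The limits are 2 libraries per group, whole-gene *Zmynd8* counts that cannot check the deletion, and marker lists that moved with the groups. Of 2040 recomputed values of the 10 genes, 1984 kept their direction and side of the threshold, 23 lost and 6 gained a call, and 27 changed sign, none of them called. *Srxn1* from P1 to P8 in WT libraries (-0.59) lost its fold cut-off with DESeq2 (-0.58), with its size factors (-0.58) and with the compared groups alone (-0.57).

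A fold change of at least 2 left 1 gene at P6, 1 at P8, and for the time steps 1 (P1 to P6) and 3 (P1 to P8) in WT and 0, 3 and 0 in cKO libraries (P1 to P6, P6 to P8, P1 to P8), where edgeR's unadjusted p below 0.05 at any fold change gave 8, 9 and 8. The adjusted p at any fold change gave 3 at P1, 8 at P6, 6 at P8, 8 from P1 to P6 in WT and 8, 9 and 8 in cKO libraries. The unadjusted p gave 5 for the interaction of P1 and P6. The share over all genes was not computed for a fold change of 2, for the unadjusted p, or for the time steps at any fold change. These counts therefore cannot be set against all genes. Already at a fold change of 1.5, between 18.9% and 29.4% of all genes were called over the time steps. With single libraries left out the counts ran from 0 to 0 at P1, 2 to 3 at P6, 1 to 3 at P8, over the time steps 3 to 5, 8 to 8 and 6 to 7 in WT and 2 to 3, 4 to 5 and 2 to 3 in cKO libraries, and for the interactions 3 to 3 (P1 and P6), 6 to 7 (P6 and P8) and 4 to 5 (P1 and P8).

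Replicate numbers did not pair the samples: over 15 pairs of groups their deviations correlated at -0.08 to 0.12, 2 pairs above 0.1. With the replicate block the counts were 0, 2 and 2 at P1, P6 and P8, 5, 8, 7, 2, 5 and 2 over the time steps, and 3, 6 and 4 for the interactions, where *Mt2* was the call lost.

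Sign changes were mostly those of *Gclm*, 15 of the 27. With the replicate block its log2 change was 0.049 between genotypes at P6 and -0.029 from P6 to P8 in cKO libraries. Over the libraries left out in turn it ran from -0.72 to 0.67 between genotypes at P6, from -1.35 to 0.32 at P8, from -0.16 to 1.06 for P6 to P8 in WT, from -0.97 to 0.76 for P6 to P8 and from -1.51 to 0.17 for P1 to P8 in cKO, and from -0.61 to 0.78, -1.29 to 0.43 and -1.24 to 0.43 for the interactions. *Txnrd1* at P1 ran from -0.025 to 0.013. The P1 and P6 interaction ran from -0.028 to 0.24 for *Mt1* and from -0.17 to 0.044 for *Hmox1*, and that of P6 and P8 from -0.12 to 0.15 for *Mt1* and from -0.19 to 0.049 for *Mt3*. For *Mt1* the latter was also -0.016 with DESeq2, -0.015 with its size factors and -0.011 with the compared groups alone.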
